A study of Mus musculus with 6 samples.

Results

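The interferon regulatory factors (IRFs) are a family of transcription factors, and the 8 genes described here, Irf1, Irf2, Irf3, Irf4, Irf5, Irf7, Irf8 and Irf9, were taken by gene symbol from the 55357 genes measured in primary mouse astrocytes. Each of the 8 matched 1 gene of the table. RNA-seq was performed on 3 cultures of cortical astrocytes transfected with a plasmid carrying FLAG-tagged BRAF K499E (KE) and on 3 nontransfected cultures (NT, labelled naive), with RNA taken at 48 hours. The methods describe astrocytes grown from cortices of C57BL/6 embryos, with the dishes shaken before the cells were replated. The medium they give for the replated cells contained HB-EGF. The CMV promoter of the plasmid is not restricted to one cell type. No culture given an empty plasmid was analysed here, so an effect of BRAF KE and an effect of receiving plasmid DNA cannot be told apart in any comparison below. Neither the labels nor the methods say whether the cultures came from separate preparations, so the p-values measure the spread between these samples, which may be technical.

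IRFs share a DNA-binding domain at the amino terminus that recognizes the GAAA repeats of interferon-stimulated response elements (ISREs). IRF3 and IRF7 wait in the cytoplasm until the kinases TBK1 and IKKε phosphorylate them downstream of nucleic acid sensors, and they then enter the nucleus and switch on type I interferon genes. Secreted interferon acts back through its receptor, and IRF9 joins phosphorylated STAT2 in ISGF3, the complex that turns on interferon-stimulated genes, Irf7 among them. IRF1 is an activator induced by interferon and by NF-κB, and IRF2 binds the same sites and can oppose it. IRF4, IRF5 and IRF8 are best known from blood cells and macrophages, where IRF4 and IRF8 bind DNA together with the factor PU.1, and in the brain IRF5 and IRF8 are associated with microglia.

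The values are gene counts that the authors normalized with DESeq2, here called normalized counts. Their log2 after adding 1 was compared between KE and NT with limma in the 15280 genes with a mean of at least 10, and log2FC is the KE mean minus the NT mean on that scale. The depth, estimated from the step between low values, was roughly 24500000 to 34100000 reads per culture and lowest in KE replicate 2, and the estimate is loose because many low values were not whole multiples of that step. Braf, the transfected gene, was 34933 to 40978 in KE and 811 to 946 in NT. Of 10 astrocyte markers, 9 were tested, of which 6 were called up, 1 was called down and 2 were not called, with a median log2FC of 0.41. Of all tested genes, 25.3% were called up and 26% down. Gfap, the intermediate filament gene of astrocytes, had the largest rise (log2FC 0.87), Gja1, which encodes connexin 43, was the one called down (-0.46), and Aqp4 (0.02) and S100b (-0.60) were not called; these 4 are named after their values were seen. Slc1a3, the glutamate transporter GLAST, had the highest mean (47360 ± 1070 in KE and 39859 ± 1757 in NT; SD, n = 3), while the gap junction gene Gjb6 was near 0 in both groups. The cultures also contained transcripts of other cells. All 15 myeloid markers were lower in KE, and their summed normalized counts were 5575 to 7705 in KE and 45219 to 53227 in NT. The 5 tested oligodendrocyte lineage markers were lower too, led in level by Olig1 (log2FC -0.20), and so was the single tested endothelial marker, Pecam1 (log2FC -0.86). Of the 3 tested neuronal markers, Tubb3 was called up (log2FC 0.43), and Syt1 (0.50) and Snap25 (-0.77), named after their values were seen, were not called. Of the 5 markers of T and B lymphocytes, 2 were at 0 in every culture and the highest, Cd79a, had a mean of 1.29.

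All 8 genes had promoter windows of 300 bases in RefSeq (build GRCm38.p6), 11 windows in all, since Irf1, Irf8 and Irf9 have 2 annotated starts each. The windows were searched on both strands for 4 patterns. These were the ISRE core, GAAA and GAAA with any 2 bases between them, the Ets-IRF composite element, GGAA and GAAA with any 2 bases between them, the STAT (GAS) core, TTC and GAA with any 3 bases between them, which reads the same on both strands, and one form of the NF-κB site, GGG and TTCC with any 3 bases between them. A match was found in 3 of the 8 genes, and the matched stretches are printed here because the 3 genes behaved differently in KE, Irf1 being upregulated, Irf8 downregulated and Irf2 not called. Each stretch is read 5′ to 3′ on the plus strand, which is the strand of these genes, with the matched letters in capitals.
Irf1, chr11:53769899-53769957: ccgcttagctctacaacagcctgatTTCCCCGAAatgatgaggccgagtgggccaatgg
Irf8, chr8:120736162-120736238: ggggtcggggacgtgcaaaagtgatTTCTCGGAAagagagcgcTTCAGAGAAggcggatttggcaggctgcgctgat
Irf2, chr8:46739495-46739554: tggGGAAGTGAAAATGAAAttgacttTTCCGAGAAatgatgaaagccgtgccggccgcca
Irf2, chr8:46739703-46739762: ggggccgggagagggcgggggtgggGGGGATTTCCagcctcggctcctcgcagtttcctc

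In Irf1 the capitals are 1 STAT core, beginning 90 bases before the annotated start. In Irf8 they are 2 STAT cores, beginning 171 and 153 bases before the start. The first Irf2 stretch holds the composite element and the ISRE core, which overlap, followed by a STAT core, and the second holds the NF-κB form. The STAT core was present in 3 of the 8 genes and in 9.55% of all 27025 genes with such windows, and the other patterns in 1 of the 8 each, against 3.99% for the ISRE core, 3.16% for the composite element and 6.31% for the NF-κB form. The window of Irf7, the gene with the largest rise of the family, is given whole because none of the 4 patterns occurs in it. It is read on the minus strand, the strand of the gene, and no letters are marked.
Irf7, chr7:141266375-141266674: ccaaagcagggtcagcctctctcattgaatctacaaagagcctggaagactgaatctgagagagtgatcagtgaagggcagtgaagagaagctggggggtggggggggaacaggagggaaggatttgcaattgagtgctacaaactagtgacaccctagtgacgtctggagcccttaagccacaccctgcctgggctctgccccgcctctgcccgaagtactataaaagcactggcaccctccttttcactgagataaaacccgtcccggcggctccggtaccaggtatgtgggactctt
These are matches of letters, not measured binding, and a missing match concerns these windows and patterns alone.

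Irf7, Irf1 and Irf9 were upregulated in KE, Irf8 and Irf5 were downregulated, Irf2 and Irf3 did not pass the test, and Irf4 was too low to be tested. Thus 5 of the 7 tested IRF genes had an adjusted p-value under 0.05 in the limma comparison, where 51.3% of all tested genes did. The count called up was 3, against 25.3% of all tested genes, and the count called down was 2, against 26%. The counts per direction are small, and nothing particular to the family is read from them. An absolute log2FC above 1.5 was found for 3 of the 7, Irf7 upward and Irf8 and Irf5 downward, whereas 2.26% of all tested genes were called up beyond 1.5 and 3.44% were called down beyond it. In 5 of the 7 the ranges of the groups were separate, as they were in 59.9% of all tested genes.

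**Figure D1:**
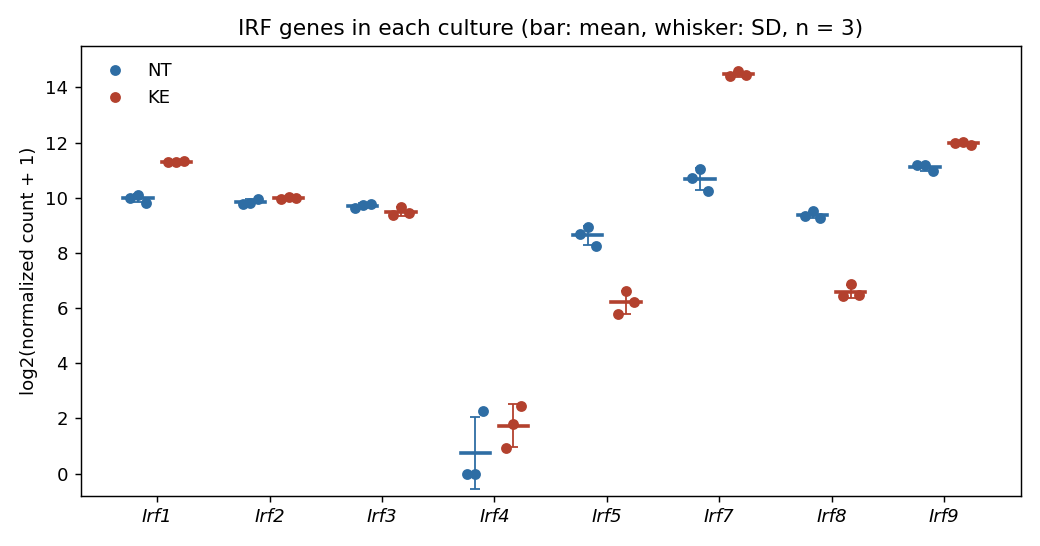
Expression of each IRF gene as log2 of the normalized count plus 1 (vertical axis) in the 3 NT (blue) and 3 KE (red) cultures, where points are cultures, horizontal bars are means and whiskers are SDs. The groups lie apart for Irf1, Irf7 and Irf9, with KE above, and for Irf5 and Irf8, with KE below, while they overlap for Irf2, Irf3 and Irf4.

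Irf7 encodes the factor that amplifies type I interferon production. KE replicates 1, 2 and 3 had 21714, 24490 and 22212 normalized counts of Irf7, and NT replicates 1, 2 and 3 had 1661, 2123 and 1215. Irf7 (ENSMUSG00000025498) is encoded on the minus strand, on chromosome 7 between 140842619 and 140846398 of GRCm39. The lowest KE culture was 10.2 times the highest NT culture. The NT cultures spread over 1.75-fold and the KE cultures over 1.13-fold. The means were 22805 ± 1480 in KE and 1666 ± 454 in NT (SD, n = 3), a log2FC of 3.81 (standard error 0.15, 95% interval 3.47 to 4.15, adjusted p = 1.8e-08 from limma), and the KE mean was 13.7 times the NT mean. This was rank 38 among the rises of the 15280 tested genes. Plasmacytoid dendritic cells are known for a high level of Irf7, and of their 3 markers Siglech is listed at 0 in all 6 cultures and Ccr9 had means of 0.87 in KE and 1.64 in NT. The third, Bst2, is also an interferon-stimulated gene in other cells and had a log2FC of 2.10. The part of plasmacytoid dendritic cells in the Irf7 values was not tested.

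Irf1, the interferon-inducible activator, had normalized counts of 2519, 2515 and 2545 under KE, against 1022, 1098 and 899 under NT. The KE cultures were nearly level, with a coefficient of variation of 0.64% against 9.96% in NT, and they all lay above the NT cultures. The log2FC was 1.33 (standard error 0.08, adjusted p = 1.7e-07 from limma), and the KE mean was 2.51 times the NT mean. The gene (ENSMUSG00000018899) is on the plus strand, on chromosome 11 between 53660812 and 53669200 of GRCm39. Irf2, its antagonist, was 988, 1032 and 1015 in KE and 864, 899 and 995 in NT. NT replicate 3 lay within the range of KE, and the difference did not pass the test (log2FC 0.14, 95% interval -0.02 to 0.31, adjusted p = 0.139 from limma). The ratio of Irf1 to Irf2 in normalized counts was therefore 2.44 to 2.55 in KE and 0.904 to 1.22 in NT, with the groups apart. The exact two-sided permutation test of that ratio gave p = 0.1, which is the smallest that 3 cultures against 3 allow. With Irf1 this far apart and Irf2 nearly level, the ratio was bound to separate, so this p adds no support of its own. Irf2 (ENSMUSG00000031627) is on the plus strand, on chromosome 8 between 47192222 and 47300501 of GRCm39.

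Irf9 encodes the DNA-binding subunit of ISGF3. Its normalized counts were 4043, 4146 and 3874 in KE and 2302, 2308 and 1986 in NT, with every KE culture above every NT culture. The log2FC was 0.87 (standard error 0.07, 95% interval 0.72 to 1.03, adjusted p = 1.9e-06 from limma), and the KE mean was 1.83 times the NT mean. Irf9 (ENSMUSG00000002325) is on the plus strand, on chromosome 14 between 55841028 and 55847812 of GRCm39. Its partner Stat2 had a log2FC of 1.68. The difference between Irf9 and Stat2 was not tested.

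Irf3, the factor present in most cells before infection, was 654, 819 and 695 in KE and 782, 858 and 883 in NT. KE replicate 2 lay above NT replicate 1, so the groups overlapped. The log2FC of -0.22 (standard error 0.10, 95% interval -0.43 to -0.01) did not pass the threshold after adjustment over all genes (adjusted p = 0.0728 from limma). The call was not stable. Without KE replicate 2 the log2FC was -0.32 with an adjusted p of 0.0143 from limma, and with all 6 cultures and the replicate number as a block it was -0.22 with an adjusted p of 0.0439 from limma. Irf3 (ENSMUSG00000003184) is on the plus strand, on chromosome 7 between 44647033 and 44652272 of GRCm39. Relative to Irf3, Irf7 was 29.9 to 33.2 in KE and 1.38 to 2.47 in NT as a ratio of normalized counts, a 16.4-fold change of the ratio. The exact two-sided permutation p was again 0.1, and it adds no support of its own, since the Irf7 values alone fix the separation. These ratios are not corrected for gene length, and only their change between groups is read.

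**Figure D2:**
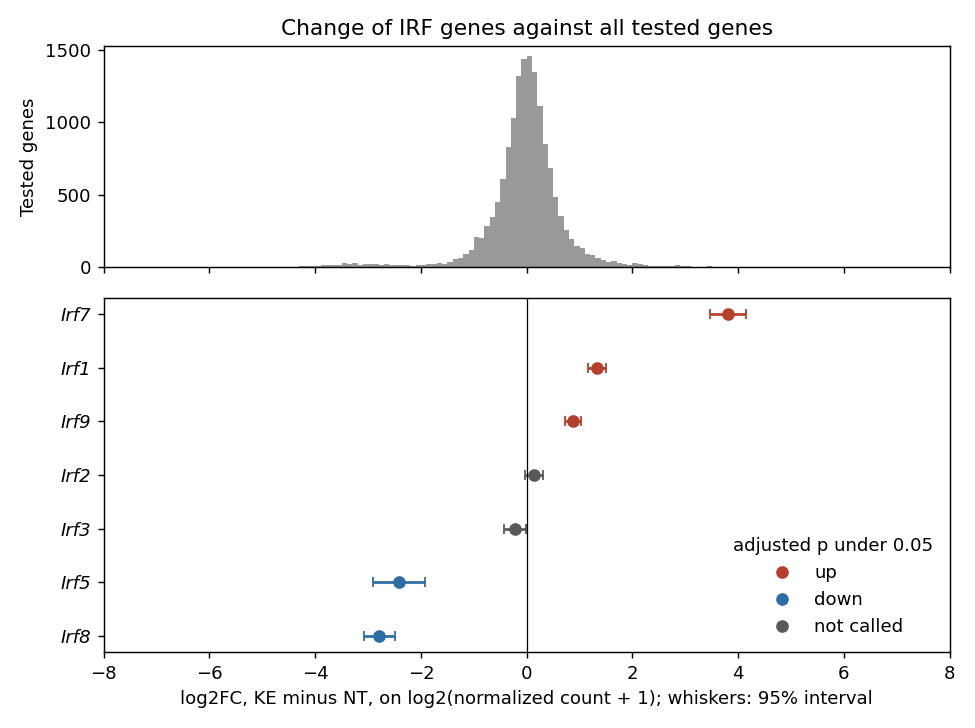
Upper panel, number of tested genes (vertical axis) at each log2FC between KE and NT (horizontal axis, KE minus NT, on the scale of log2 of the normalized count plus 1). Lower panel, log2FC of the 7 tested IRF genes on the same axis with 95% intervals from limma, coloured by whether they passed the test, and Irf7 (3.81), Irf5 (-2.42) and Irf8 (-2.79) stand in the tails of the distribution.

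Irf8 and Irf5 were both downregulated. Irf8, a lineage factor of macrophages and microglia, was 86.0, 115 and 87.7 in KE and 648, 727 and 618 in NT. Every KE culture was far below every NT culture. The log2FC was -2.79 (standard error 0.14, 95% interval -3.08 to -2.49, adjusted p = 5.2e-08 from limma), and the KE mean was 0.145 of the NT mean. Irf8 (ENSMUSG00000041515) is on the plus strand, on chromosome 8 between 121463096 and 121485659 of GRCm39. Irf5, which acts downstream of Toll-like receptors and MYD88, was 54.1, 97.7 and 73.5 in KE and 410, 489 and 307 in NT. These groups were also apart, with a wider spread than for Irf8. The log2FC was -2.42 (standard error 0.22, 95% interval -2.91 to -1.93, adjusted p = 5.6e-06 from limma), and the KE mean was 0.187 of the NT mean. Irf5 (ENSMUSG00000029771) is on the plus strand, on chromosome 6 between 29526276 and 29541870 of GRCm39.

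Irf5 and Irf8 moved in the direction of the myeloid markers. All 15 of 15 myeloid markers were tested and called down, where 26% of all tested genes were, with a median log2FC of -3.31 (-4.07 to -0.88). None of the 15 was at 0 in all cultures. Against the summed normalized counts of the 15 markers, Irf8 was 1.53 ± 0.0384% in KE and 1.32 ± 0.0899% in NT (SD, n = 3). Irf5 was 1.18 ± 0.186% in KE and 0.793 ± 0.126% in NT (SD, n = 3). For both genes each KE share was above each NT share, by 0.22 (Irf8) and 0.58 (Irf5) on the log2 scale, with an exact two-sided permutation p of 0.1, the smallest possible here. The size of this difference depended on the marker list, and with 5 of the markers in the sum it was 0.65 (Irf8) and 1.02 (Irf5). The marker sum itself fell by 3.01 on the log2 scale. In bulk RNA a smaller number of myeloid cells and less of these transcripts per cell cannot be told apart, and the part of the myeloid cells in the fall of Irf5 and Irf8 was not tested.

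Irf4, known from lymphocytes and plasma cells, was 0.90, 2.50 and 4.53 in KE and listed at 0 in 2 NT cultures and at 3.81 in the other. It did not reach the mean of 10 required for the test, and no fold change is given because both groups are at the level of a few reads. Irf4 (ENSMUSG00000021356) is on the plus strand, on chromosome 13 between 30933209 and 30950959 of GRCm39.

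To compare levels between genes, each normalized count was divided by the length of the gene's merged exons in kb. In NT the order was Irf7 (441 ± 120 normalized counts per kb), Irf9 (379 ± 31.8), Irf3 (242 ± 15.2), Irf1 (215 ± 21.4), Irf2 (82.2 ± 6.06), Irf8 (68.3 ± 5.75) and Irf5 (56.1 ± 12.8) (SD, n = 3), with Irf4 below 1 in every culture. In this order the ranges of Irf7 and Irf9 overlapped, as did those of Irf3 and Irf1 and those of Irf8 and Irf5. In KE the order was Irf7 (6033 ± 392), Irf9 (693 ± 23.7), Irf1 (540 ± 3.43), Irf3 (208 ± 24.6), Irf2 (90.5 ± 1.97), Irf5 (10.5 ± 3.05), and Irf8 (9.89 ± 1.66), again with Irf4 below 1, and of the neighbours in this order only Irf5 and Irf8 had ranges that overlapped. The sum over the 8 genes was 7585 ± 437 per kb in KE and 1483 ± 179 in NT (SD, n = 3). Irf7 made up 79.5 ± 0.582% of this sum in KE and 29.3 ± 4.58% in NT. The share of Irf9 was 9.15% in KE and 25.6% in NT, and that of Irf3 was 2.73% in KE and 16.5% in NT, although the level of Irf9 itself was higher in KE. Shares are bound to sum to 100%, so the rise of Irf7 lowers the others. These orders depend on the length used. With the longest annotated transcript as the length, Irf9 (568 per kb) was above Irf7 (514) in NT and Irf8 (17.1) was above Irf5 (11.6) in KE. The share of Irf7 was then 74.4% in KE and 23.5% in NT.

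**Figure D3:**
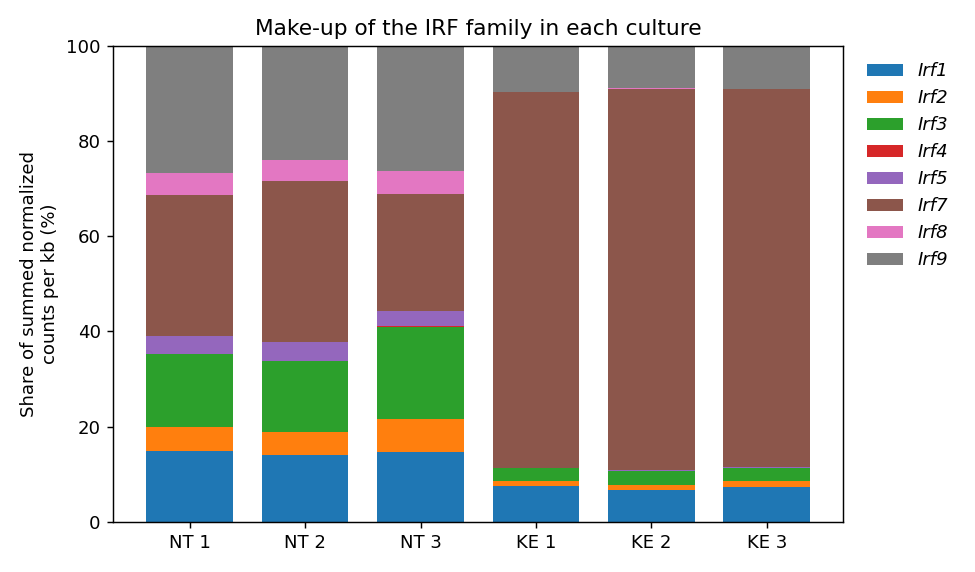
Share of each IRF gene in the summed normalized counts per kb of merged exons of the 8 genes (vertical axis, percent) in each NT and KE culture (horizontal axis). In NT, Irf7, Irf9, Irf3 and Irf1 each take more than 14% of the sum, and in all 3 KE cultures Irf7 takes 79.0% to 80.1%.

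The genes around the IRFs were compared from lists of their activators, partners and targets. Of 13 adaptors and kinases upstream of IRFs, 4 were called up, 1 was called down and 8 were not called, where 25.3% of all tested genes were called up and 26% down, with a median log2FC of 0.05 against 0.00 for all tested genes. Without NT replicate 1 the count called up was 2, and the count called down was 2 without NT replicate 3 and also in the fit blocked on replicate number. Myd88, the adaptor of most Toll-like receptors, had the largest rise (log2FC 0.79, adjusted p = 3.8e-06 from limma), and Sting1, the adaptor of cytosolic DNA sensing, fell from 847 ± 102 to 445 ± 44.1 normalized counts (SD, n = 3; log2FC -0.92). Traf3 (log2FC -0.08) and Irak1 (0.05), a ubiquitin ligase and a kinase of these pathways, were not called. Of the 10 partners and coactivators, 3 were called up and 5 down. Among the 5, Spib (7.49 in KE and 72.6 in NT) and Batf (4.07 in KE and 52.3 in NT), named after their values were seen, reached the required mean of 10 only through NT, so their calls are no support, and 3 were called down with a required mean of 50. Stat2 rose from 2295 ± 175 to 7343 ± 402 normalized counts (SD, n = 3). Spi1, which encodes PU.1, the partner of IRF4 and IRF8, fell from 830 ± 208 to 65.9 ± 27.5 (log2FC -3.69), and Tcf3, which encodes the E2A proteins, had a log2FC of -0.40. Spi1 is itself a gene of myeloid cells, whose markers moved the same way, and its part was likewise not tested. Of 6 genes for proteins that bind IRFs, 2 were called up and none down. They were Trim21, a ubiquitin ligase that acts on IRFs (log2FC 1.83), and Irf2bpl (0.42).

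Target genes were then grouped by factor. Of 4 genes switched on by IRF3 and IRF7, Cxcl10 and Ccl5, which encode chemokines, were called up with log2FC of 4.10 and 1.33. The other two passed the filter on low values only through KE, so their calls are no support and their values are given as a description. Ifnb1, which encodes interferon beta, reached 233, 198 and 235 normalized counts in KE, whereas each of the NT cultures lists it at 0. Ifna4 is also listed at 0 in NT and had a mean of 79.5 ± 9.83 (SD, n = 3) in KE; it is named for that reason after its values were seen, and it belongs to a family of similar genes that can share reads. All 10 ISGF3 targets were called up, as were 25.3% of all tested genes, with a median log2FC of 3.42 (1.87 to 4.25), led by Mx1 (4.25), and Ifit3 (4.04) and Ifit1 (3.47) were the highest by mean. Mx1, Ifit3 and Ifit1 are antiviral effector genes. Of 8 targets of IRF1, 7 were called up and 1 was not called, beside the same 25.3%, with a median log2FC of 1.70. Among them were Gbp2 (2.81), a guanylate-binding protein, Tap1 (1.75), a peptide transporter of antigen presentation, and Nlrc5 (1.31), the activator of MHC class I genes. The lists are not exclusive to one factor, since many interferon-stimulated genes are bound by several IRFs.

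For the targets of IRF5 and IRF8 the counts were small, and nothing is read from them. Of all tested genes, 25.3% were called up and 26% down. Of the 5 IRF5 targets, 3 were tested, and Il6 was upregulated (log2FC 2.48) while Tnf was downregulated (-3.60). The cytokine subunits Il12b (log2FC -0.22) and Il23a (means of 1.14 in KE and 2.04 in NT, not tested) were low in both groups. Of the 5 targets of IRF8 with PU.1, 2 were called down, among them Cybb (-3.43), which encodes a subunit of the phagocyte NADPH oxidase. Cst3 (1.30), which encodes cystatin C, and Il18 (0.75) were called up, and both are also expressed outside myeloid cells.

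**Figure D4:**
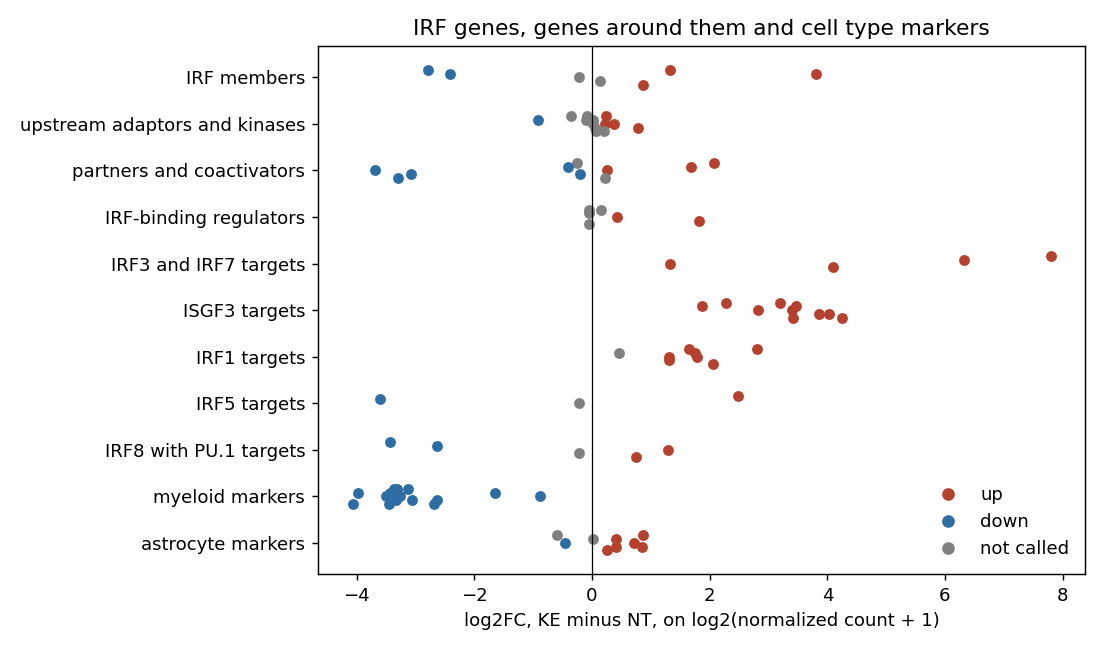
Log2FC between KE and NT (horizontal axis, on the scale of log2 of the normalized count plus 1) of each tested gene of the IRF family, of the lists of upstream, partner, regulator and target genes, and of the myeloid and astrocyte markers (rows), where points are genes coloured by whether they passed the test. All tested ISGF3 targets lie above 1.8 and all myeloid markers below 0, and the 2 rightmost points, Ifnb1 and Ifna4, are listed at 0 in NT, so their position depends on the added count of 1.

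The genes whose profiles were most like those of each IRF over the 6 cultures were found among genes with a mean of at least 100 by the root mean square difference (RMS) of their centred log2 values. For Irf7 they were Oasl1 (RMS 0.09), Gbp4 (0.10) and Ifit3 (0.13), all of them interferon-stimulated genes. For Irf1 they were Trafd1 (0.03), Ripk2 (0.05) and Ifitm3 (0.05), and for Irf9 they were Lrp11, Rnf114 and Akap8l (each 0.04). The nearest to Irf8 were Cmklr1 (0.07), Ctss (0.09) and Havcr2 (0.10), and those nearest to Irf5 were Trpv2 (0.12), Ccl4 (0.17) and Prkcb (0.17). For Irf2 they were Flot1, Psd2 and Zcchc24 (each 0.02) and for Irf3 Sf3a2 (0.02), Phc2 (0.02) and Men1 (0.03). The 6 cultures fall in 2 groups, so genes with a similar log2FC come out as alike, and the measure is given as a description.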

How the data were processed

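The labels gave group and replicate number for the 6 cultures. The authors deposited a normalized signal for 55357 genes, gene counts divided by DESeq2 normalization factors. Per the labels, Trim Galore, STAR, Salmon and DESeq2 were used, on a TruSeq stranded mRNA library. The labels name GRCh38, whereas the gene identifiers are mouse and the methods give GRCm39 with Gencode for mouse. Whether counting used the strand is not given in the sources used here. The table gives no raw depth, and errors here are the spread over the 3 cultures of a group. Between 77.2% and 80.5% of a culture's low values were whole multiples of 1 read to within 0.1, too few to recover reads, and no count test was run.

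With limma 3.58.1 (R 4.3.3), a model was fitted to log2(normalized count + 1) (group as the only factor, variance trend, mean of at least 10), two-sided, with Benjamini-Hochberg adjustment over 15280 genes. DEGs had an adjusted p-value under 0.05. The script was tested on simulated data. Gene positions and lengths are from Gencode vM39 on GRCm39 (54749 of 55357 identifiers found), and promoter sequences from RefSeq on GRCm38.p6.

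The members and lists were chosen with earlier results of these data known. Besides the 8 members, the text names, for each list, the called genes with the largest rise and fall and up to 2 others with the highest mean, the 3 genes most like each member, neighbours within 5000 bases, Braf, and the highest marker of each cell type. Some genes that this rule names are not reported here. Alternatives were other pseudocounts, filters, normalizations and lengths, no variance trend, a replicate block, a shorter marker list and leaving out each culture.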

Additional observations from a re-analysis of the deposited data

How the results depend on the processing

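Irf7, Irf1, Irf9, Irf8 and Irf5 kept their direction and call under all 14 alternatives, with adjusted p from limma of at most 0.00102 (Irf5) and log2FC of 0.80 to 0.91 for Irf9, -2.92 to -2.70 for Irf8 and -2.63 to -2.21 for Irf5. Irf2 was called under none (adjusted p 0.0644 to 0.361 from limma). Irf3 was called in 2 of its 14 (log2FC -0.32 to -0.15 over them, adjusted p 0.0143 to 0.248), namely without KE replicate 2 (-0.32) and with the replicate block (-0.22, adjusted p = 0.0439), which left 1 member not called in place of 2 in both settings (1 to 2 over the cultures left out). No source says whether same-numbered KE and NT cultures were prepared together. The r between their deviations was 0.059 to 0.066, against -0.05 to -0.01 for other pairs, and each culture correlated best with its own number. A pairing is thus not settled, and the Irf3 call depends on it. The block also gave 2 in place of 1 downregulated upstream gene. Without 1 culture, the upstream list had 2 to 4 genes up (2 without NT replicate 1) and 1 to 2 down (2 without NT replicate 3). With a mean of at least 50, 3 in place of 5 partners were down, as fewer were tested. With 5 myeloid markers in the sum, the shares of Irf5 and Irf8 were higher in KE by 1.02 and 0.65 on the log2 scale. With the longest transcript as the length, levels per kb in KE and NT were 813 and 324 for Irf1, 216 and 197 for Irf2, 324 and 377 for Irf3, 1039 and 568 for Irf9 and 17.1 and 118 for Irf8, and 7039 in KE for Irf7, so that Irf9 stood above Irf7 in NT and Irf8 above Irf5 in KE. Irf4, at 0 to 4.53 normalized counts, had an adjusted p of 0.304 from limma with no filter, and low depth and absent expression cannot be told apart at this level.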

Other observations

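The summed normalized counts of the 10 ISGF3 targets were 16419, 17859 and 11230 in NT replicates 1, 2 and 3, and those of the 15 myeloid markers were 53227, 52667 and 45219. In KE the ISGF3 sum was 162200 to 166113.

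Several IRF genes overlap other genes in the annotation, and reads of overlapping genes may not be separable. Rnf31, which encodes a subunit of the linear ubiquitin ligase complex, overlaps the start of Irf9 on the same strand by 282 bases and was upregulated as well (log2FC 0.71, adjusted p = 1.2e-04 from limma). The lncRNA gene Gm12216 spans Irf1 on the opposite strand and had normalized counts of 6.36 ± 2.59 in NT and 29.8 ± 6.23 in KE (SD, n = 3), and since it reached the required mean of 10 only through KE, its call is no support. On the strand opposite Irf3, Bcl2l12 overlaps it by 1104 bases and was downregulated (-0.45), and Scaf1 overlaps it by 22 bases and was upregulated (0.19). Phrf1, which overlaps the end of Irf7 by 63 bases on the opposite strand, had a log2FC of -0.21 and was not called. Tnpo3 overlaps Irf5 by 1047 bases on the opposite strand and was downregulated (log2FC -0.31, adjusted p = 0.00266 from limma). Its normalized counts were 3498 ± 233 in KE and 4337 ± 248 in NT (SD, n = 3), against means of 75.1 and 402 for Irf5. The part of Tnpo3 reads in the Irf5 values was not tested. Gm16675, at the start of Irf2, had a log2FC of 0.64 (adjusted p = 0.0501 from limma).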
